A study of Rattus norvegicus with 4 samples.

Results

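The genes described here are 32 interferon-stimulated genes, chosen by name as well-known targets of interferon. Earlier results of these data were known at the choice. The genes were read in rat soleus, a slow postural muscle of the hind limb. Of the 32 genes, 30 could be matched to a probe on the array through the accession printed with the probe, out of 26633 genes and transcripts in all. Herc6 and Xaf1 were not matched and are not analysed here. Each gene was read from its brightest probe, as the processed signal of a one-colour Agilent array divided by the 75th percentile of that array and brought back to intensity units. A probe counted as above background on an array where the scanner software had flagged more than 0.5 of its spots as well above background.

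The study asked how soleus that has regenerated after an injury responds to overload, compared with soleus that is not labelled as regenerated. It has 4 groups of male rats, with total RNA of 6 muscles mixed in equal parts for 1 array per group. Normal muscle carried no injection in its label and came from rats aged 16 weeks. Regenerated muscle, also at 16 weeks, was taken 8 weeks after an injection that the labels call CTX and do not expand. Overloaded muscle, labelled as hypertrophied, and regenerated overloaded muscle came from rats aged 18 weeks, and the labels give neither the way the load was raised nor how long it lasted, nor the time from injection in the last group. The strain is not given either. The titles carry an L for both groups labelled as regenerated and an R for the others, letters that are not explained, and nothing states whether muscles of 2 groups came from the same rats.

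With 1 array per group there is no replicate, so no difference below has been tested and none carries a p-value. The error given with a difference is a technical standard error (SE), from the scatter between spots that carry the same probe, and it leaves out every difference between rats, RNA mixtures and hybridisations. The 4 arrays lay on 1 slide, the 16-week groups in row 1 and the 18-week groups in row 2, so overload, age and slide row cannot be told apart. Between 60.4% and 70.6% of probe spots were well above background, with the lowest share on the normal array, where the median local background was 44 intensity units against 32 to 33 on the other arrays. No spot was saturated. A list of 14 slow muscle fibre markers includes genes of muscle in general, such as Acta1, Ckm and Des. All 14 were above background on all 4 arrays, with a summed scaled signal between 2042820 and 2729750 intensity units.

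Interferons are secreted proteins that cells release on sensing viral or misplaced nucleic acid. Type I interferons signal through JAK kinases to a complex that includes STAT2 and IRF9 and binds the interferon-stimulated response element (ISRE) in promoters. Type II interferon acts at a related element (GAS). The target genes encode proteins that block viral entry, translation and replication, that cut or tag RNA and protein, and that present antigen, and they are expressed both by muscle fibres and by the macrophages and other cells between them. The RNA here came from whole muscle, in which fewer cells of a type and less RNA per cell cannot be told apart.

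Most of the interferon-stimulated genes had their lowest signal in normal muscle and their highest in overloaded muscle. Of the 30 genes, 25 were above background on all 4 arrays. Among these, 24 had their lowest signal in normal muscle, where 23.9% of the 14417 genes and transcripts above background on all 4 arrays were lowest. Scaled by the array median it was 19 of 25, and under normexp background correction 20 of 25. The highest signal lay in overloaded muscle for 16 of the 25 genes, against 11.5% of all. It lay in regenerated overloaded muscle for 5 genes, in regenerated muscle for 4 and in normal muscle for 0. Of the 14417 genes and transcripts, 3335 were highest in regenerated overloaded, 1416 in regenerated and 8015 in normal muscle. The normal array was also the one with the highest local background and the fewest spots above it, and the part of this in the low values was not tested.

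**Figure D1:**
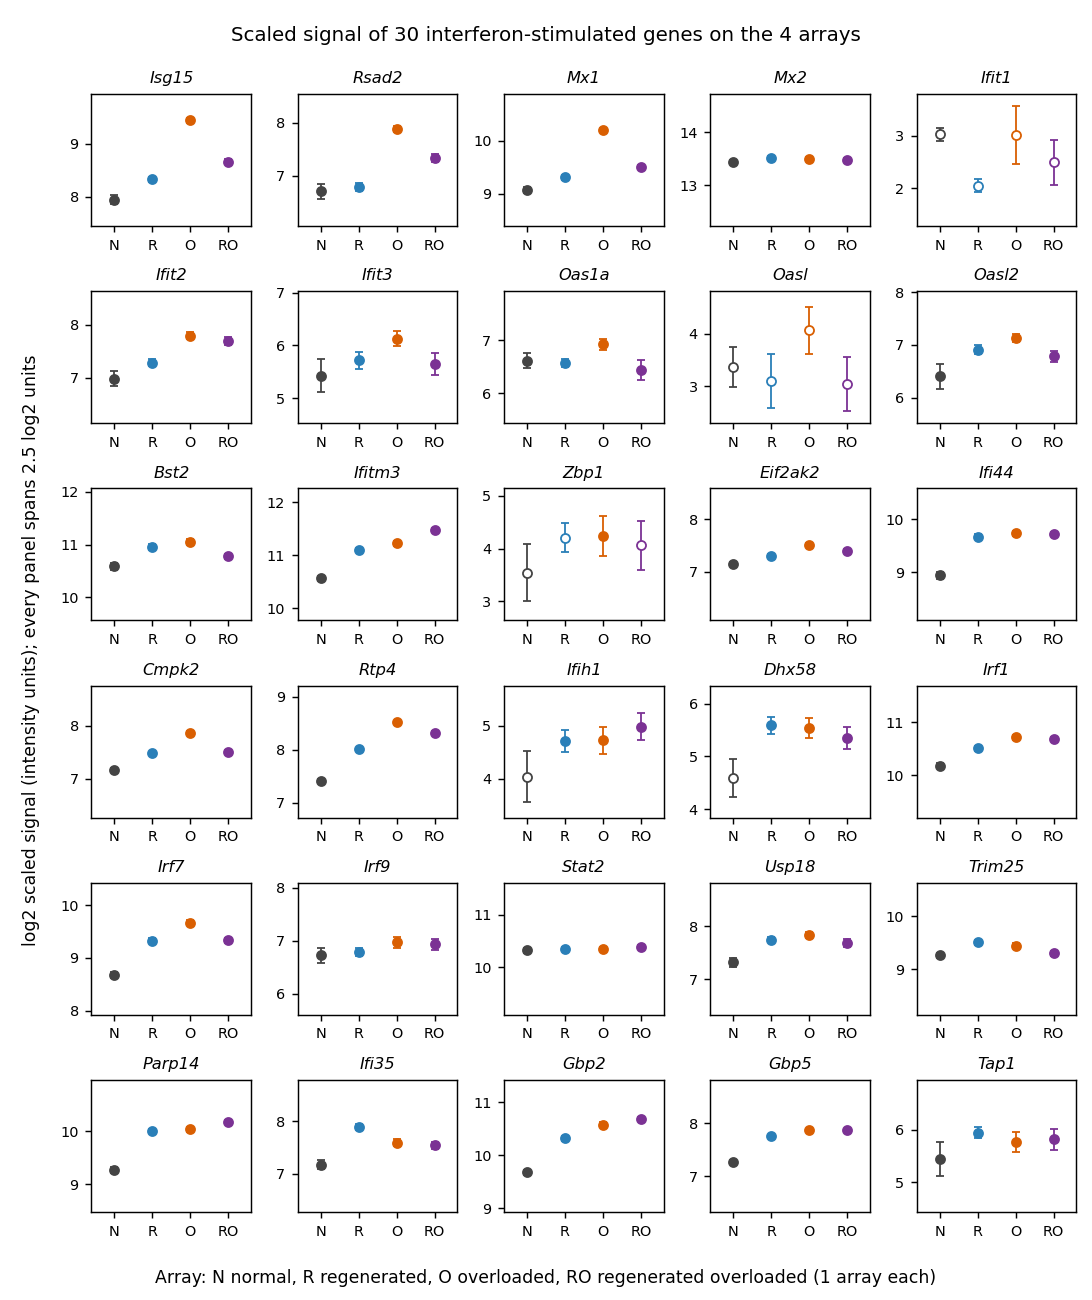
Scaled signal of the 30 interferon-stimulated genes on the 4 arrays, on a log2 axis in intensity units. Points are the mean over the spots of the gene's probe, bars the technical SE, and open points mark a probe that was not well above background. Isg15, Rsad2, Mx1 and Rtp4 stand highest in overloaded muscle (O), while Mx2 and Stat2 keep nearly 1 level on all arrays.

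Overload in muscle not labelled as regenerated was read from overloaded against normal muscle. Here 4 of 28 measured genes were 2-fold or more higher, against 2.37% of all genes and transcripts, and they were Isg15, Rsad2, Mx1 and Rtp4. At 1.5-fold the count was 14 of 28, against 7.79% of all, and 0 genes were 1.5-fold or more lower, where 3.2% of all were. The median log2 difference of the 25 genes above background on both arrays was 0.66, with a range from 0.03 to 1.51, and that of all genes was -0.13. Relative to the median of all genes the members' median was thus 0.79. With the 3 genes that were above background on 1 array alone added, at their bound or at 0 where no fold could be given, the median was 0.57. Mx2 and Stat2, at the low end of the range, changed sign when arrays were scaled by their median.

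Among the antiviral effectors, Isg15 showed the largest difference. It encodes a ubiquitin-like protein that is attached to other proteins during the interferon response. Its scaled signal was 245 in normal, 321 in regenerated, 697 in overloaded and 405 in regenerated overloaded muscle. Overloaded muscle stood above the other arrays, and its spots on the overloaded array ran from 685 to 709 while those on the normal array ran from 241 to 250. The log2 difference of overloaded minus normal was 1.51 ± 0.09 (technical SE, 2 spots per array), or 2.84-fold.

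Rsad2 (viperin), a radical SAM enzyme that makes a chain-ending nucleotide, gave 104, 110, 236 and 161 in normal, regenerated, overloaded and regenerated overloaded muscle. Normal and regenerated muscle differed by less than the technical SE, and overloaded muscle was 2.26-fold above normal (log2 1.18 ± 0.16). Its neighbour in function, Cmpk2, a mitochondrial nucleotide kinase, gave 143, 179, 233 and 181 in the same order, over 10 spots per array, a log2 difference of overload of 0.70 ± 0.05. For both genes the overloaded array was the highest, and for Cmpk2 regenerated overloaded muscle was back at the level of regenerated muscle.

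Mx1, a dynamin-like GTPase that traps incoming viral particles in the nucleus in rodents, gave 536 in normal, 637 in regenerated, 1181 in overloaded and 727 in regenerated overloaded muscle. The overload difference was 1.14 ± 0.07, or 2.2-fold, and overloaded muscle alone stood apart. Mx2, the paralogue of Mx1, was bright and level on all arrays, with 11116, 11676, 11624 and 11389. Its overload difference was 0.06 ± 0.05. Rtp4, a receptor transporter protein induced by type I interferon, gave 169, 257, 369 and 320 over 10 spots per array, and was 2.18-fold higher in overloaded than in normal muscle (1.13 ± 0.04). Rtp4 was also above normal in both regenerated groups.

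Of the IFIT family, Ifit1 binds viral RNA that lacks the host cap methylation. Ifit2 gave 126 in normal, 156 in regenerated, 222 in overloaded and 207 in regenerated overloaded muscle, with an overload difference of 0.81 ± 0.16. Ifit3, a dim probe, gave 43.0, 52.6, 69.9 and 50.04, and its overload difference of 0.70 had a technical SE of 0.34. Ifit1 was not well above background on any array.

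The oligoadenylate synthetases make the messenger that switches on RNase L, and the Oasl proteins are their relatives. Oas1a gave 97.7, 95.1, 121 and 86.5 in normal, regenerated, overloaded and regenerated overloaded muscle, an overload difference of 0.31 ± 0.18. It was the 1 gene of the 25 whose lowest signal was not on the normal array. Oasl2 gave 84.7, 120, 140 and 111, an overload difference of 0.73 ± 0.25. Oasl was not well above background on any array.

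Bst2 (tetherin) holds budding virus at the cell surface, and Ifitm3 blocks fusion in endosomes. Bst2, read from 1 spot per array, gave 1536 in normal, 1984 in regenerated, 2108 in overloaded and 1751 in regenerated overloaded muscle, an overload difference of 0.46 ± 0.08. Ifitm3 gave 1510, 2194, 2394 and 2840 and was 1.58-fold higher in overloaded than in normal muscle (0.66 ± 0.06). Unlike Isg15 and Mx1, Ifitm3 was highest in regenerated overloaded muscle. Ifi44, a cytoplasmic protein with antiviral activity, gave 490, 811, 849 and 845, so that the other arrays lay close together above normal (overload difference 0.79 ± 0.08).

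Eif2ak2 (PKR), the kinase that halts translation on double-stranded RNA, differed little. It gave 142, 158, 183 and 169 over 10 spots per array, with an overload difference of 0.37 ± 0.05. Zbp1, a sensor of left-handed nucleic acid that can start necroptosis, was above background in overloaded muscle alone, with a signal of 18.8 there against 11.7, 18.5 and 16.7 on the other arrays. No fold can be given against normal muscle, and against regenerated overloaded muscle it was at least 1.05-fold higher.

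The sensors of cytoplasmic RNA were dim. Ifih1 (MDA5) was not well above background in normal muscle, at 16.4, and gave 26.2, 26.5 and 31.7 in regenerated, overloaded and regenerated overloaded muscle, too near the detection limit for a fold against normal. Dhx58 (LGP2), also below background in normal muscle at 24.2, gave 48.0, 46.2 and 40.7. It was at least 1.47-fold higher in regenerated and at least 1.42-fold higher in overloaded than in normal muscle. Neither sensor differed by 1.5-fold between the 3 arrays on which it was above background.

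Of the transcription factors, Irf7, the amplifier of type I interferon production, was the most different. It gave 410 in normal, 642 in regenerated, 811 in overloaded and 643 in regenerated overloaded muscle, an overload difference of 0.98 ± 0.08 (1.98-fold), just under the 2-fold limit. The regenerated pair of arrays held 1 level between normal and overloaded. Irf1, induced mainly by type II interferon, gave 1160, 1455, 1681 and 1645, an overload difference of 0.53 ± 0.06. Irf9 and Stat2, which belong to the complex that binds ISREs, were near level. Irf9 gave 106, 110, 125 and 122 (0.24 ± 0.18), and Stat2 gave 1278, 1307, 1308 and 1337 (0.03 ± 0.06).

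Among the regulators that handle ISG15, ubiquitin and ADP-ribose, Parp14, an ADP-ribosyltransferase, gave 619 in normal, 1030 in regenerated, 1052 in overloaded and 1160 in regenerated overloaded muscle. Its overload difference was 0.77 ± 0.06, and a second, dimmer probe gave 0.73. Usp18, the protease that removes ISG15 and damps the type I receptor, gave 160, 216, 229 and 207 (0.52 ± 0.10). Ifi35, placed in this class by the gene list alone, gave 145, 236, 193 and 186 (0.42 ± 0.11), and was highest in regenerated muscle. Trim25, the ubiquitin ligase of the RIG-I pathway, gave 614, 727, 694 and 628, a difference of 0.18 ± 0.07. A second probe of Usp18 gave 0.49 for overload. In this class the arrays were ordered differently from Isg15, since only Usp18 was highest in overloaded muscle.

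The 3 genes listed as linked to type II interferon were lowest in normal muscle as well. Gbp2, a guanylate-binding protein that attacks pathogen vacuoles, gave 817, 1277, 1531 and 1637 in normal, regenerated, overloaded and regenerated overloaded muscle, an overload difference of 0.91 ± 0.06. Gbp5, a relative that promotes inflammasome assembly, gave 154, 216, 234 and 234 (0.60 ± 0.05). Tap1, a subunit of the peptide transporter for MHC class I, gave 43.4, 61.3, 54.2 and 56.2, with a technical SE of 0.37 around a difference of 0.32. None of the 3 was highest in overloaded muscle. Irf1, described above as induced mainly by type II interferon, was highest there, at 1681 against 1645 in regenerated overloaded muscle. Of the 5 genes with a second probe, Irf1 gave opposite signs from its probes in regenerated overloaded minus regenerated muscle (0.18, and -0.18 from the dimmer one) and Eif2ak2 in regenerated overloaded minus overloaded muscle (-0.12, and 0.12 from the dimmer one), where the probes of Irf1 gave -0.03 and 0.02.

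The 250 bases before the annotated start of each gene were read from RefSeq promoters (build GRCr8), which held 24 of the 32 genes. The genes were chosen as well-known interferon targets, so a raised share of interferon motifs is not independent of that choice. The ISRE core, spelled GAAANNGAAA and read on both strands, lay in 15 of 24 (62.5%), against 3.41% of 33469 promoters of the same length. The GAS motif, spelled TTCNNNGAA and the same on both strands, lay in 6 of 24 (25.0%), against 7.67%. Bst2 and Oas1a each held a pair of ISRE matches that overlap, and in Bst2 a GAS match overlaps an ISRE match as well. The promoters without an entry were those of Isg15, Mx2, Ifit1, Ifit2, Zbp1, Rtp4, Dhx58 and Usp18. The stretches around the ISRE core, which 15 of the 24 promoters hold, follow for the 6 genes with the largest overload difference among those holding one. They are given on the strand of the gene and read 5′ to 3′, with the match in capitals. A match that reads with T and C first lies on the other strand.
Rsad2, chr6:48788223-48788302 (- strand): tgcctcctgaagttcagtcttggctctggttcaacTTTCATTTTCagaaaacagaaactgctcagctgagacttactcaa
Irf7, chr1:205800048-205800127 (- strand): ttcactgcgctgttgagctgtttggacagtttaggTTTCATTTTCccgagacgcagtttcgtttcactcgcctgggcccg
Gbp2, chr2:234005661-234005726 (+ strand): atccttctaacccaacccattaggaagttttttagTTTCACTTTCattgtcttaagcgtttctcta
Ifi44, chr2:243303841-243303901 (- strand): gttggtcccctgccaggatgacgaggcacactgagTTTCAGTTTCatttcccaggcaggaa
Parp14, chr11:78408023-78408102 (+ strand): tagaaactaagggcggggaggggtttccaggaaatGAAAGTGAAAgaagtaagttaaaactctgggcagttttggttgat
Oasl2, chr12:47383292-47383371 (- strand): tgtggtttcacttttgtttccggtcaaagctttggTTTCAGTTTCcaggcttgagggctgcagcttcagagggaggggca

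The match lies from -147 to -138 bases before the start in Rsad2, from -69 to -60 in Irf7, from -31 to -22 in Gbp2, from -26 to -17 in Ifi44, from -76 to -67 in Parp14 and from -151 to -142 in Oasl2. In overloaded minus normal muscle the members with an ISRE match had a median log2 difference of 0.70 over 13 above background on both arrays, and 9 of 14 measured were 1.5-fold or more higher. The members with a promoter entry and no match (7, all above background on both arrays) had a median of 0.42 and 2 such genes, Mx1 and Cmpk2. Among genes that are not on the list, those with a match had a median of -0.10 over 198 above background on both arrays and those without -0.11 over 7320. Of the 231 and 8519 measured, 12.6% and 8.49% were 1.5-fold or more higher. A match describes these letters alone and shows neither binding nor its absence.

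**Figure D2:**
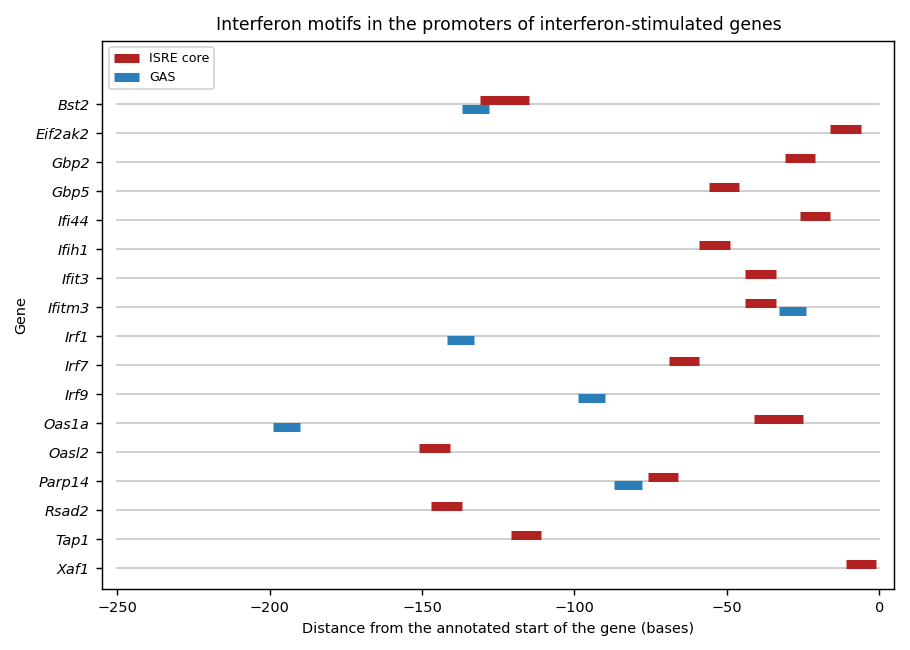
Positions of the ISRE core (red) and the GAS motif (blue) within 250 bases before the annotated start, on a horizontal axis of distance from the start in bases, for the genes that hold either. The ISRE matches of Rsad2, Oasl2, Bst2 and Tap1 lie farther from the start than those of the other genes, and the pairs of matches in Bst2 and Oas1a overlap and are drawn as 1 block each.

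Regeneration without overload was read from regenerated against normal muscle, both at 16 weeks and side by side in row 1 of the slide. Most of the genes were higher here too, with a smaller median. Of 27 measured genes, 0 were 2-fold or more higher, against 1.24% of all. At 1.5-fold, 6 of 27 were higher (5.62% of all) and 0 lower (2.34% of all). The 6 were Parp14 (0.74 ± 0.07), Ifi44 (0.73 ± 0.08), Ifi35 (0.71 ± 0.10), Irf7 (0.65 ± 0.08), Gbp2 (0.64 ± 0.07) and Rtp4 (0.61 ± 0.04). The median over 25 genes was 0.37 and that of all genes -0.12, which leaves 0.49 relative to all genes.

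The order of the genes was not that of overload. Isg15 differed by 0.39 ± 0.10 between regenerated and normal muscle, Mx1 by 0.25 ± 0.08 and Rsad2 by 0.08 ± 0.17. Oas1a gave -0.04 ± 0.17 and was the 1 gene of 25 below 0, where 9769 of 16911 measured genes and transcripts were. The other effectors lay between these and Ifi44, with Ifitm3 at 0.54 ± 0.06, Oasl2 at 0.51 ± 0.25, Bst2 at 0.37 ± 0.08, Cmpk2 at 0.32 ± 0.05, Ifit2 at 0.31 ± 0.16 and Ifit3 at 0.29 ± 0.35. This comparison shares the normal array with that of overload, and a low value there would enter both.

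Overload in muscle that had regenerated was read from regenerated overloaded against regenerated muscle, 2 arrays that the previous overload comparison did not use. Here 0 of 27 measured genes were 2-fold or more higher, against 1.56% of all genes, and 0 were 1.5-fold or more higher (4.69% of all) or lower (2.38% of all). The median was 0.06, against -0.02 over all genes, with 17 genes above 0 and 10 below. Of 17208 measured genes and transcripts, 7904 were above 0 and 9258 below. The largest difference was that of Rsad2, 0.55 ± 0.11 or 1.46-fold, followed by Ifit2 (0.41 ± 0.09), Ifitm3 (0.37 ± 0.06), Gbp2 (0.36 ± 0.06), Isg15 (0.34 ± 0.07) and Rtp4 (0.31 ± 0.03). The lowest was that of Ifi35, -0.35 ± 0.09. Irf7 gave 0.00 ± 0.06, Cmpk2 0.01 ± 0.04 and Ifi44 0.06 ± 0.06.

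**Figure D3:**
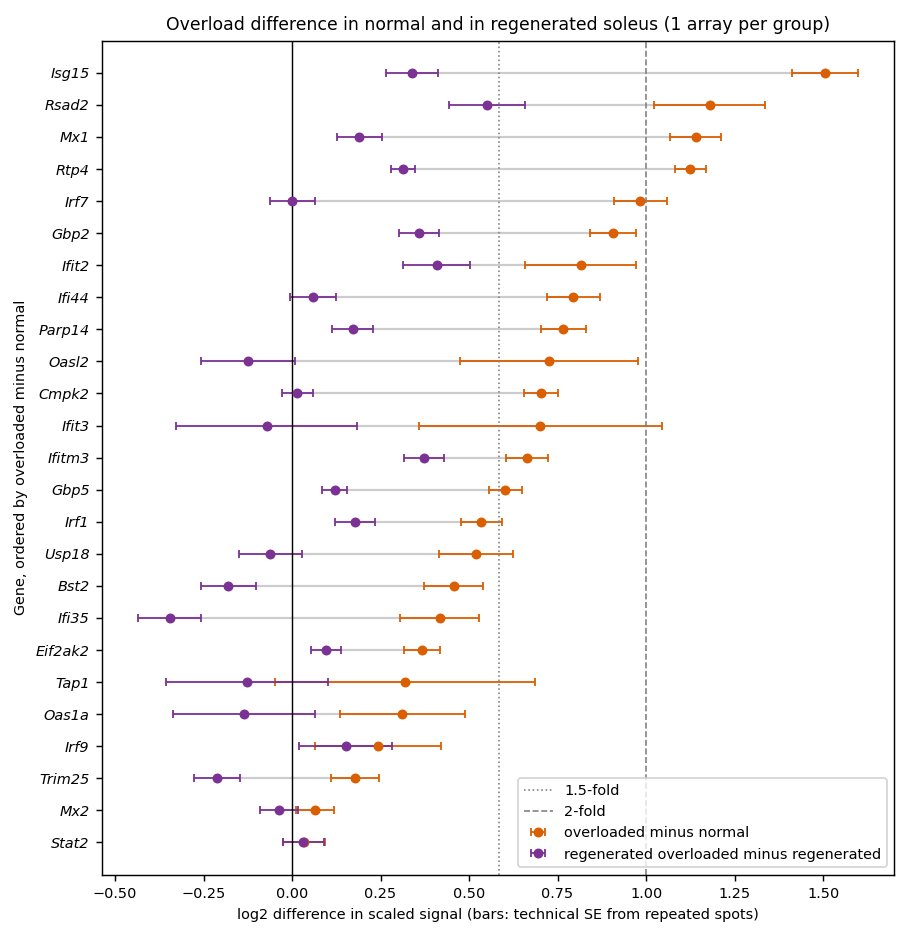
Log2 difference in scaled signal for overload in normal muscle (orange) and in regenerated muscle (purple), for the 25 genes above background on all 4 arrays, with technical SE bars and lines at 1.5-fold and 2-fold. Orange points reach 1.51 for Isg15, and every purple point lies left of its orange point, the pair of Stat2 being nearly at 1 place.

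The difference between both overload differences was then taken for each gene, as the value for regenerated muscle minus the value for normal muscle. It was below 0 in all 25 genes above background on all 4 arrays, with a median of -0.58, whereas it was below 0 in 5221 of 14417 genes and transcripts, with a median of 0.09. Under median scaling and cyclic loess normalization 24 of the 25 were below 0, and under normexp background correction 23. The overload difference was 1.5-fold or more smaller in regenerated muscle for 12 of the 25, against 2.75% of all. That count was 5 of 25 under normexp background correction and 17 of 25 in the deposited series table. For 19 of the 25 the overload difference was smaller by more than 2 technical SE, against 9.9% of all. Both overload differences were of opposite sign in 9 of the 25, against 26.4% of all, and in 4 of these they also lay 1.5-fold or more apart, against 2.15% of all.

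Isg15 had the largest of these values, -1.17 ± 0.12, followed by Irf7 at -0.98 ± 0.10, Mx1 at -0.95 ± 0.10, Oasl2 at -0.85 ± 0.28 and Rtp4 at -0.81 ± 0.06. Stat2, at -0.00 ± 0.08, Irf9, at -0.09 ± 0.22, and Mx2, at -0.10 ± 0.08, were closest to 0. By class the median was -0.66 over 14 effectors, -0.22 over 4 transcription factors and -0.48 over the 3 genes listed as linked to type II interferon. It was -0.59 over the 4 genes listed as ISG15, ubiquitin and ADP-ribose regulators, Ifi35 included. The value holds the normal array with a positive sign, so a low reading on that array would make it more negative.

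**Figure D4:**
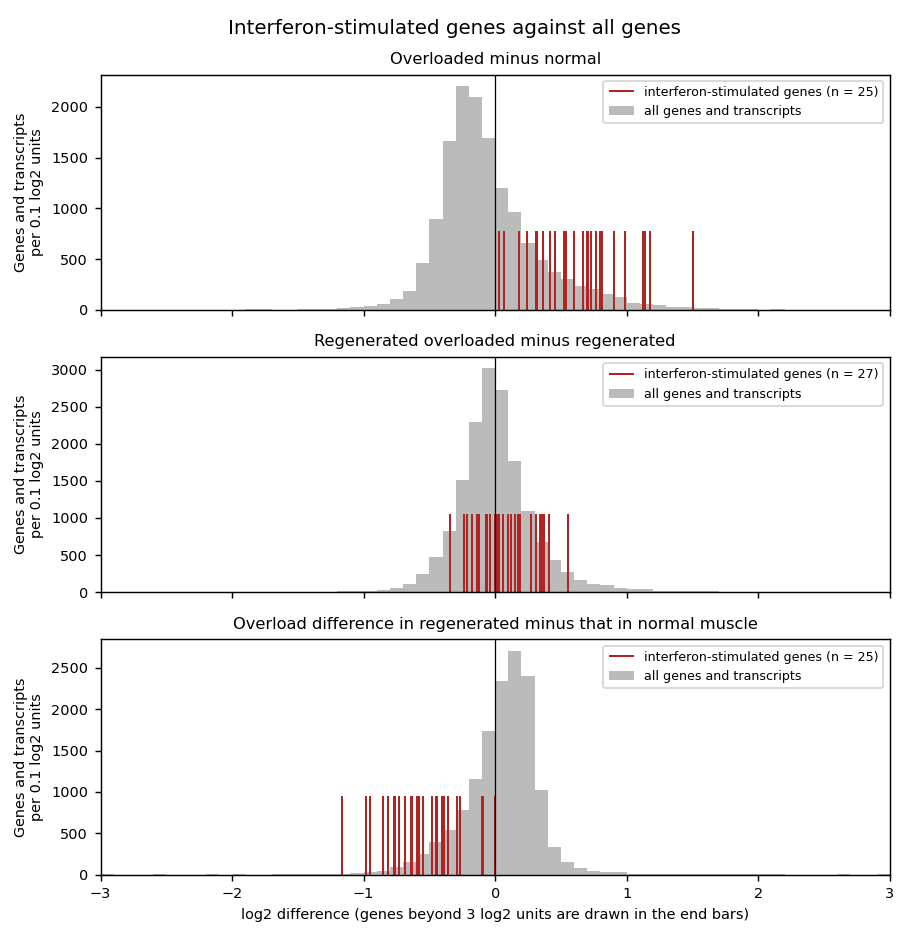
Number of genes and transcripts per 0.1 log2 units (grey bars) and the interferon-stimulated genes (red lines) for overload in normal muscle, overload in regenerated muscle and the difference of both. The red lines run from 0.03 to 1.51 in the top panel, from -0.35 to 0.55 in the middle one and from -1.17 to -0.00 at the bottom.

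The last comparison, regenerated overloaded against overloaded muscle, holds age and slide row fixed and leaves the normal array out. Of 28 measured genes 2 were 1.5-fold or more lower, against 2.3% of all, and they were Isg15 (-0.78 ± 0.07, 1.72-fold lower) and Mx1 (-0.70 ± 0.06, 1.63-fold lower). No gene was 2-fold or more higher (1.02% of all) or 1.5-fold or more higher (3.07% of all). The median was -0.12 over 27 genes, with -0.01 over all genes. Of 28 genes 21 were lower in regenerated overloaded muscle, where 9137 of 17493 measured genes and transcripts were. Rsad2 gave -0.55 ± 0.09, Oas1a -0.49 ± 0.21, Ifit3 -0.48 ± 0.25, Cmpk2 -0.36 ± 0.04, Irf7 -0.34 ± 0.06 and Oasl2 -0.34 ± 0.13. The other 7 were higher in regenerated overloaded muscle, namely the dim Ifih1 (0.26 ± 0.36), Ifitm3 (0.25 ± 0.06), Parp14 (0.14 ± 0.06), Gbp2 (0.10 ± 0.06), Tap1 (0.05 ± 0.28), Stat2 (0.03 ± 0.06) and Gbp5 (0.00 ± 0.04).

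The other genes of the interferon pathway were read from 5 lists that hold 88 genes with a probe. In overloaded minus normal muscle 5 of 70 measured were 2-fold or more higher (2.37% of all genes) and 18 were 1.5-fold or more higher (7.79% of all), with 0 lower at either limit and a median of 0.26. In regenerated minus normal muscle 14 of 69 were 1.5-fold or more higher (5.62% of all), with a median of 0.32. In regenerated overloaded minus regenerated muscle 4 of 71 were 1.5-fold or more higher, near the 4.69% of all genes, with a median of 0.08. In regenerated overloaded minus overloaded muscle 2 of 72 were 1.5-fold or more lower, near the 2.3% of all genes, with a median of 0.06. Over the 61 genes above background on all 4 arrays, the overload difference was smaller in regenerated muscle for 48, with a median of -0.21, beside -0.58 for the 25 interferon-stimulated genes. By list it was smaller for 13 of 14 MHC class I and immunoproteasome genes (median -0.36) and 19 of 23 further interferon-induced genes (-0.24). It was smaller for 8 of 9 genes of nucleic acid sensing (-0.11) and 6 of 12 receptor and JAK-STAT genes (0.02). On the ligand list it was smaller for 2 of 3 genes (-0.08). Of these 3 only Ifna4 is an interferon, and Il15 and Il18 are interleukins.

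The interferons themselves were mostly not seen. Ifnb1, Ifng, Ifna2, Ifna5 and Ifnk were not well above background on any array, which at this sensitivity does not show that they were absent. Ifna4, a type I interferon, was above background on all 4 arrays, with 101 in normal, 89.5 in regenerated, 98.4 in overloaded and 82.8 in regenerated overloaded muscle, and an overload difference of -0.04 ± 0.18. Il18, a cytokine that induces type II interferon, gave 140 in normal, 221 in regenerated, 304 in overloaded and 295 in regenerated overloaded muscle, an overload difference of 1.12 ± 0.10. Of 12 measured receptor and JAK-STAT genes, 0 were 2-fold and 1 was 1.5-fold or more higher in overloaded than in normal muscle (7.79% of all genes were), and the median was -0.00.

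Cxcl10, a chemokine strongly induced by interferon, was below background in normal muscle at 16.7 and gave 29.5 in regenerated, 111 in overloaded and 55.8 in regenerated overloaded muscle. It was at least 3.4-fold higher in overloaded than in normal muscle. It was higher by 0.92 ± 0.29 on the log2 scale in regenerated overloaded over regenerated muscle, and the log2 difference of regenerated overloaded minus overloaded muscle was -0.99 ± 0.23. The order of its arrays was that of Isg15. Oas1i, another oligoadenylate synthetase, gave 29.4, 54.3, 78.5 and 44.7, below background in normal muscle, and was at least 2.41-fold higher in overloaded muscle, while regenerated overloaded minus overloaded muscle gave -0.81 ± 0.35.

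Ifitm1 and Lgals3bp followed another order, highest in regenerated overloaded muscle. Ifitm1, an entry block like Ifitm3, gave 1005, 1679, 2165 and 2692, an overload difference of 1.11 ± 0.06 in normal and 0.68 ± 0.06 in regenerated muscle. Lgals3bp, a secreted galectin ligand, gave 392, 770, 829 and 1054 (1.08 ± 0.08 and 0.45 ± 0.06). In regenerated minus normal muscle Lgals3bp differed by 0.97 ± 0.08, Psmb8, an immunoproteasome subunit, by 0.82 ± 0.10 and Ikbke, a kinase that activates IRF7, by 0.81 ± 0.10. Ifi27l2b differed by 0.76 ± 0.05 between regenerated overloaded and regenerated muscle, and Mavs, the adaptor of the RNA sensors, by -0.54 ± 0.05 between regenerated overloaded and overloaded muscle.

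Markers of other cell types moved with these results, and their part in them was not tested. All 20 macrophage and myeloid markers had a probe and all were above background outside normal muscle, 18 in normal. Their summed signal was 49675 in normal, 76701 in regenerated, 87194 in overloaded and 94707 in regenerated overloaded muscle. In overloaded minus normal muscle 16 of 20 were 1.5-fold or more higher (7.79% of all genes), with a median of 0.85. In regenerated minus normal muscle 12 of 20 were (5.62% of all), with a median of 0.61. Cd68, a lysosomal protein of macrophages, gave 681, 1405, 1378 and 1639, Adgre1, a surface receptor of macrophages, 193, 323, 445 and 456, and Aif1 2332, 3634, 4733 and 4993. Of the 18 markers above background on all 4 arrays, 17 were lowest in normal muscle, against 23.9% of all genes. The highest signal lay in overloaded muscle for 2 of the 18, against 16 of 25 interferon-stimulated genes and 11.5% of all. Itgam, an integrin of myeloid cells named after its values were seen, was highest in normal muscle, with 99.5, 83.4, 71.4 and 66.8. In regenerated overloaded minus overloaded muscle the median of the macrophage list was 0.08, with 16 of 20 genes higher, and that of the interferon-stimulated genes -0.12, with 7 of 28 higher. Of all measured genes and transcripts, 8189 of 17493 were higher. The overload difference was smaller in regenerated than in normal muscle for 16 of 18 macrophage markers, with a median of -0.54. It was smaller for 5221 of 14417 genes and transcripts.

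The fibroblast list had 9 of 10 genes with a probe, and its summed signal was 95349, 177686, 235506 and 299647 in normal, regenerated, overloaded and regenerated overloaded muscle. Of these, 7 of 9 were 2-fold or more higher in overloaded than in normal muscle (2.37% of all genes), where the median was 1.3. Col3a1, a collagen, differed by 2.13 ± 0.05, Col1a1 by 1.83 ± 0.05, Fap by 1.58 ± 0.09 and Lum by 1.40 ± 0.07. In regenerated overloaded minus regenerated muscle the fibroblast median was 0.84, against 0.06 for the interferon-stimulated genes. Of the 8 fibroblast genes above background on all 4 arrays, all 8 were lowest in normal muscle, against 23.9% of all. The overload difference was smaller in regenerated than in normal muscle for 7 of these 8, 3 of them by 1.5-fold or more (2.75% of all). The median was -0.49, beside -0.58 for the interferon-stimulated genes.

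The lists of the remaining cell types had lower medians in overloaded minus normal muscle than the macrophage list. Of 16 lymphocyte genes with a probe, 7 were never above background, among them Cd3e and Ncr1, and the summed signal ran from 626 in normal to 893 in overloaded muscle. Of 8 measured lymphocyte genes, 6 were higher and 2 lower in overloaded than in normal muscle. At 1.5-fold 4 were higher (7.79% of all genes) and 0 lower. Prf1, a protein of cytotoxic lymphocytes, was at least 2.08-fold higher there. In regenerated minus normal muscle 3 of 8 were 1.5-fold or more higher (5.62% of all) and 1 lower (2.34% of all), at -0.97. The dendritic cell list (9 with a probe, Zbtb46 and Ccr7 never above background) ran from 4706 to 6782, and Xcr1 was above background in regenerated overloaded muscle alone, at least 2.32-fold above regenerated and at least 2.6-fold above overloaded muscle. The neutrophil list (9 with a probe, 5 never above background, among them Elane and Csf3r) ran from 232 to 332, and Fcnb, a ficolin of myeloid cells, differed by 1.02 ± 0.26 in overloaded minus normal muscle. The 10 endothelial genes ran from 10643 to 11606. The slow muscle fibre list had a median of -0.33 in overloaded and -0.25 in regenerated minus normal muscle.

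**Figure D5:**
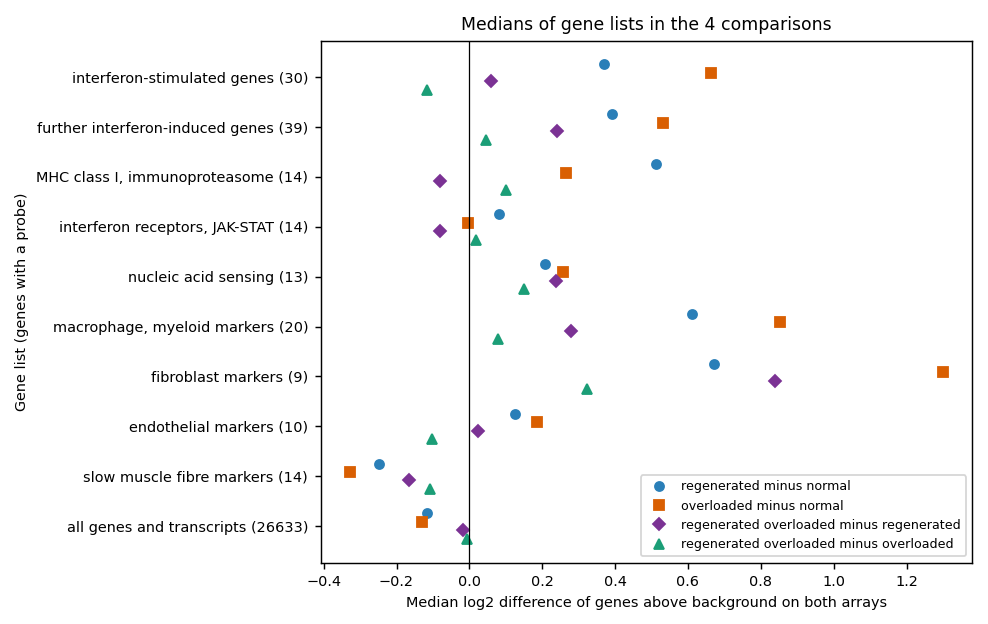
Median log2 difference of gene lists in the 4 comparisons, over the genes above background on both arrays; the number of genes with a probe stands beside each list. The interferon-stimulated genes lie at 0.66 for overload in normal muscle and at 0.06 for overload in regenerated muscle, where the fibroblast markers lie at 0.84.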

How the data were processed

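Per the file headers, the authors' scanner software gave for every spot a processed signal as an intensity, background-subtracted and spatially detrended but not scaled between arrays, beside median and background intensities and flags. The software was Feature Extraction, version 11.5.1.1 by the headers but 10.10.1.1 by the submitters' processing notes. The deposited series table holds the same intensities multiplied by a fixed factor within an array (2.14 in normal, 2.10 in regenerated, 1.95 in overloaded and 2.02 in regenerated overloaded muscle), linear and not centred, and the basis of the factor is unknown. It served as an alternative.

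Each array has 58717 probe spots of 30367 probes. Between 406 and 451 spots with outlier flags were left out per array. Accessions were matched to symbols of the RefSeq table (18635 probes, 15631 symbols); the probes are placed on rn4 and the promoters on GRCr8, so that no probe coordinates are given. Genes entered a comparison if either array showed the probe above background. If only 1 array did, the brighter signal was set against the higher of the dim probe's own signal and the lowest signal above background on the dim array, which bounds the fold from below. The technical SE pools the SD between spots in 20 bins of signal. The number of arrays limits the precision. Limits of 2-fold and 1.5-fold were used in 4 comparisons, with 10 alternatives of scaling, background, probe choice and filter, in Python 3.11.15, numpy 2.4.6, pandas 2.3.3, R 4.3.3 and limma 3.58.1 (for normalization only). The scripts were tested on simulated data.

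The members, the gene lists and the limits were chosen with earlier results of these data known. All members on the array are named. Of other interferon pathway genes, those 2-fold apart in a comparison and the 3 with the largest difference per comparison are named, and of each marker list up to 4 genes that are 2-fold apart. Some items are not reported here.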

Additional observations from a re-analysis of the deposited data

Results flagged for a closer look

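The overload difference ran in opposite directions in normal and in regenerated muscle for 9 of the 25 interferon-stimulated genes above background on all 4 arrays, against 26.4% of all genes, and in 4 of them both differences lay 1.5-fold or more apart, against 2.15% of all. Oasl2 was higher in overloaded than in normal muscle and lower in regenerated overloaded than in regenerated muscle, and both log2 differences lay -0.85 apart (technical SE 0.28). The same held for Ifit3 (-0.77, technical SE 0.43), Ifi35 (-0.76, technical SE 0.14) and Bst2 (-0.64, technical SE 0.11), the last read from 1 spot per array. The difference in regenerated muscle on its own was -0.12 ± 0.13 (technical SE) for Oasl2 and -0.07 ± 0.26 for Ifit3, within 1 technical SE of 0, and -0.35 ± 0.09 for Ifi35 and -0.18 ± 0.08 for Bst2. Among the rest of the 9 it was also within 1 technical SE of 0 for Mx2 (-0.04 ± 0.05), Oas1a (-0.14 ± 0.20), Usp18 (-0.06 ± 0.09) and Tap1 (-0.13 ± 0.23). For Trim25 it was -0.21 ± 0.06. With 1 array per group the difference was not tested. No group holds enough arrays for a search for single outlying samples.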

How the results depend on the processing

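With 1 array per group no replicate could be left out. No paired analysis was possible because each group has 1 array and the result comes from no test. Background correction by normexp with an offset of 50 gave the lowest values. It also started from the median spot signal and local background in place of the processed signal. An offset draws dim signals together by its construction, and the part of either change was not tested. Under it, 1 member was 2-fold and 9 were 1.5-fold or more higher in overloaded than in normal muscle, with a median of 0.38 and of 0.54 relative to all genes. Rsad2 (0.71), Mx1 (0.98) and Rtp4 (0.75) were then under 2-fold. For regenerated minus normal muscle it gave 2 members at 1.5-fold, a median of 0.23 and 0.35 relative to all genes, and for the difference of both overload differences -0.40. The deposited series table, scaled otherwise by the authors, gave 11 members at 1.5-fold and a median of 0.51 for regenerated minus normal, a median of 0.84 for overloaded minus normal, 1 member at 1.5-fold for regenerated overloaded minus regenerated and -0.72 for the difference of both. Scaling by the median gave 3 members at 1.5-fold and a median of 0.29 for regenerated minus normal, and a median of 0.56 for overloaded minus normal. The medians relative to all genes, added after seeing the data, were 0.68 with quantile and 0.66 with cyclic loess normalization and 0.87 with no filter on dim probes for overloaded minus normal muscle. Without that filter 1 member, Oasl, was 2-fold or more lower in regenerated overloaded than in overloaded muscle. Oasl was not well above background on any array. Irf7 and Gbp2 passed 2-fold for overload with cyclic loess normalization (1.03 and 1.02) and in the deposited series table (1.16 and 1.09). Across the settings 23 to 25 of the 25 genes above background on all 4 arrays were higher in overloaded than in normal muscle, except 29 of 30 with no filter and 24 of 24 without probes printed once. In the main setting 5990 of 17308 measured genes and transcripts were higher. The main share of all at 1.5-fold or more higher was 7.79% there and 5.62% in regenerated minus normal muscle. The count of genes lowest in normal muscle, 24 of 25, was 19 with median scaling and 20 with normexp, and the count with an overload difference 1.5-fold smaller in regenerated muscle, 12 of 25, was 5 with normexp and 17 in the deposited series table. Signal over background limits the 5 members that were below it on 1 or more arrays. The cause of the shifts between settings was not tested.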
